A study of Sus scrofa with 35 samples.

Results

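Heat shock factors, small heat shock proteins and BAG proteins were followed in the whole blood of pigs kept in thermoneutral conditions (TN) or under heat stress (HS). The set comprised 10 listed genes: the transcription factors HSF1 and HSF2, the HSF1-binding protein HSBP1, the small heat shock protein HSPB1, the collagen chaperone SERPINH1 and the co-chaperones BAG1, BAG2, BAG3, BAG4 and BAG5. They were found by the gene name that the array files give to each probe, out of 45222 distinct gene names. By this rule 7 of the 10 genes had a probe, with 17 probes in all, of which 13 probes of 6 genes were kept in the authors' table of 39072 expressed probes. HSPB1 had no probe under its own name, and 2 probes named Hsp27 carried the pig HSPB1 transcript as their accession. These were described beside the others and kept out of the counts. BAG2 and BAG5 had no probe by either route and were not analysed here.

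The blood came from 35 castrated male growing pigs, with 1 array per pig. Of the 3 breeds, CR is Creole, a tropical breed, LW is Large White, and F1 pigs had a parent of each. TN pigs were kept at 24 °C. HS pigs were exposed to a higher temperature, given as 30 °C in the sample labels and as 32 °C in the protocol. The exposure is 5 days in the labels and up to 5 days in the study's methods, where not every HS pig was slaughtered on the last day. Each group held 6 pigs except CR TN with 5. Littermates were spread over the groups of a breed and climates were slaughtered on different days, and neither litter nor day was in the labels, so climate and day of slaughter cannot be told apart.

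HSF1 is the main transcription factor of the heat shock response. In unstressed cells it is held inactive by chaperones, and on heat it forms trimers that bind heat shock elements and switch on chaperone genes. HSBP1 binds the trimers and lowers their activity, and HSF2 can form mixed trimers with HSF1. HSPB1 (HSP27) keeps unfolding proteins soluble without using ATP, and SERPINH1 (HSP47) helps collagen to fold in the endoplasmic reticulum. BAG proteins bind the ATPase domain of HSP70 and promote the release of its client. BAG1 also binds BCL2, BAG3 links HSP70 to small heat shock proteins and to autophagy, and BAG4, also named SODD, binds the death domain of the TNF receptor TNFR1. Much of the control of this pathway acts on the proteins, which the arrays do not measure.

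The probes differed in what they could see, so the sequences on which the results below turn are shown first. All were 60 bases long in the array files, and they are written 5′ to 3′ as deposited. Whole probes are given where they were taken to lie in coding sequence, and the first 30 bases for those that may lie in a UTR, since the files do not place the probes.
HSF1 O13343, first 30 bases: acacgggtgttcatagaattgtattttgga
HSPB1 A_72_P088101: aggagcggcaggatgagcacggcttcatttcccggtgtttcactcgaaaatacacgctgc
HSPB1 A_72_P679687: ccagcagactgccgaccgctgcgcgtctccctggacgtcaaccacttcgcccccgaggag
BAG1 A_72_P307263: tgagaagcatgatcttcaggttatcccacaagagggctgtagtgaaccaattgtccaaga
BAG4 O8387: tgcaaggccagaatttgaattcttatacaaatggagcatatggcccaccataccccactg
SERPINH1 A_72_P693455, first 30 bases: aactcccctcaactgtaaaaataggtgctg
SERPINH1 O8960, first 30 bases: ggaagggggaaagtgagcctttgttgctgt
These probes carried the values of the members with 1 or 2 measured probes. The accessions given for the probes of HSF1, HSF2, BAG1, BAG3 and BAG4 and for SERPINH1 O8960 were not among the pig RefSeq transcripts used here, so their gene names rest on the array's own annotation.

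BAG3 was the member with the most probes, 6, and the sequences show which of them were separate measurements. In the first pair below, and in the last, which is that of HSBP1, capitals mark the bases that both windows share.
BAG3 A_72_P544072, first 30 bases: CATAAAATGTGTATGGAGCCATAGGAAtat
BAG3 O2952, first 30 bases: tgaCATAAAATGTGTATGGAGCCATAGGAA
BAG3 A_72_P120811, first 30 bases: tggatgggaccagaagtttctagccggcca
BAG3 A_72_P577688: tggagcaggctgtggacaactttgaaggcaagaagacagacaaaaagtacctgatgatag
BAG3 A_72_P490512: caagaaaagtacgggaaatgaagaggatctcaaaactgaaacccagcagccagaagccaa
HSBP1 A_72_P077345, first 30 bases: ctttttacaagccaaGAGACGACGGATGGC
HSBP1 A_72_P109645, first 30 bases: GAGACGACGGATGGCtttttgcaactaact
Over their full length, BAG3 A_72_P544072 and O2952 shared 57 bases, and the HSBP1 pair shared 45 bases, so each pair measured nearly the same piece of transcript. BAG3 A_72_P120811 shared no stretch longer than 9 bases with any other BAG3 probe.

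In the RefSeq annotation of the pig assembly Sscrofa11.1, which the study also used for its annotation, HSF1 lies at chr4:463531-486483, HSF2 at chr1:40147267-40180308 and HSBP1 at chr6:4795203-4798158. HSPB1 lies at chr3:10038074-10039441 and SERPINH1 at chr9:9782939-9794485. BAG1 lies at chr10:33227530-33240731, BAG3 at chr14:129510240-129533998 and BAG4 at chr15:48299456-48348810. The array files place no probe on the genome, so the exon or UTR that a probe matches was not determined here.

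Every value below is a log2 intensity after quantile normalization by the authors, and every difference is HS minus TN on that scale. Tests were limma's moderated test in a model of breed and climate over all 35 arrays, two-sided, with Benjamini-Hochberg adjustment over all 39072 probes and a threshold of 0.05. Errors of differences are standard errors of the fit, and those of group means are SD.

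Over all breeds, 3 of the 13 member probes were differentially expressed, and all 3 were down-regulated under HS: HSF1, BAG4 and BAG3 A_72_P120811. That is 23.1% of the member probes. Among all probes 34.8% passed the same threshold, 20.1% higher and 14.7% lower in HS, so the share called among the members was below that of the array as a whole. The median difference of the member probes was -0.05, beside 0.06 over all probes. At an unadjusted p under 0.05 there were 4 member probes, beside 46.0% of all probes. Of the 2 HSPB1 probes, 1 was up-regulated.

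These calls were lost without the F1 pigs and with red cell transcripts in the model. Without the F1 pigs none of the 13 member probes passed, and neither did any other probe of the table. The 6 F1 TN arrays had the lowest mean signal, with a 75th percentile of the scanner's processed intensity of 149.9 ± 28.3 (range 112 to 186), against means of 202 to 238 in the other groups (range 145 to 329). The share of probes well above background ran from 55.2% to 68.0% over all arrays. An erythroid marker list, with 16 of 20 genes measured, had 9 genes down-regulated and 1, the anion exchanger SLC4A1, up-regulated under HS. Its mean level ranged from 10.5 to 12.6 in F1 TN and from 9.25 to 10.9 in F1 HS. It ranged from 10.2 to 11.6 in CR TN, 9.68 to 11.4 in CR HS, 10.8 to 11.6 in LW TN and 10.2 to 11.2 in LW HS. In blood, a change in the share of a cell type and a change in RNA per cell cannot be told apart. Within the erythroid list HBB, a haemoglobin gene, was at 17.4 with a difference of -0.13 and did not pass (adjusted p = 0.24, limma). Among the 9 genes of the list that fell, CA1 (-1.41), HEMGN (-1.25) and TFRC (-1.11) had the largest differences. In the marker lists of other blood cells, 2 of 6 monocyte, 3 of 9 T cell and 2 of 5 B cell genes rose and none fell. In the platelet list 1 of 5 genes fell, in the cytotoxic cell list 1 of 8 fell, and in both none rose, while none of 8 neutrophil genes passed. Once the mean erythroid level entered the model as a covariate, none of the 13 member probes passed, and 3 of all 39072 probes did. The part of red cells or of array signal in the differences below was not tested.

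HSF1 was lower in HS pigs, and most clearly in F1 pigs. In F1 TN pigs the probe ran from 10.86 to 11.49 with a median of 11.06, and in F1 HS pigs from 10.05 to 10.69 with a median of 10.38. All 6 F1 HS pigs were therefore below every F1 TN pig. Groups that did not overlap, with HS lower, were found for 3 of the 13 member probes in F1 pigs, beside 8.08% of all probes.

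The other breeds overlapped. The 5 CR TN pigs had HSF1 values of 10.39, 10.64, 10.71, 10.74 and 11.01, and the CR HS pigs ran from 10.31 to 11.10 with a median of 10.42. LW TN pigs ran from 10.45 to 11.10 with a median of 10.74, and LW HS pigs from 10.50 to 10.68 with a median of 10.59. Thus all 6 LW HS pigs were inside the range of the LW TN pigs but below their mean, and over the breeds 16 of 18 HS pigs were below the TN mean of their breed. The difference was -0.34 ± 0.09 over all breeds (adjusted p = 0.0052, limma). It was -0.70 ± 0.14 in F1 pigs (adjusted p = 0.00044), -0.13 ± 0.15 in CR pigs (adjusted p = 0.79) and -0.18 ± 0.14 in LW pigs (adjusted p = 0.68). With the erythroid list as a covariate it was -0.27 (adjusted p = 0.19, limma), and without F1 pigs -0.16 (adjusted p = 0.38).

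**Figure D1:**
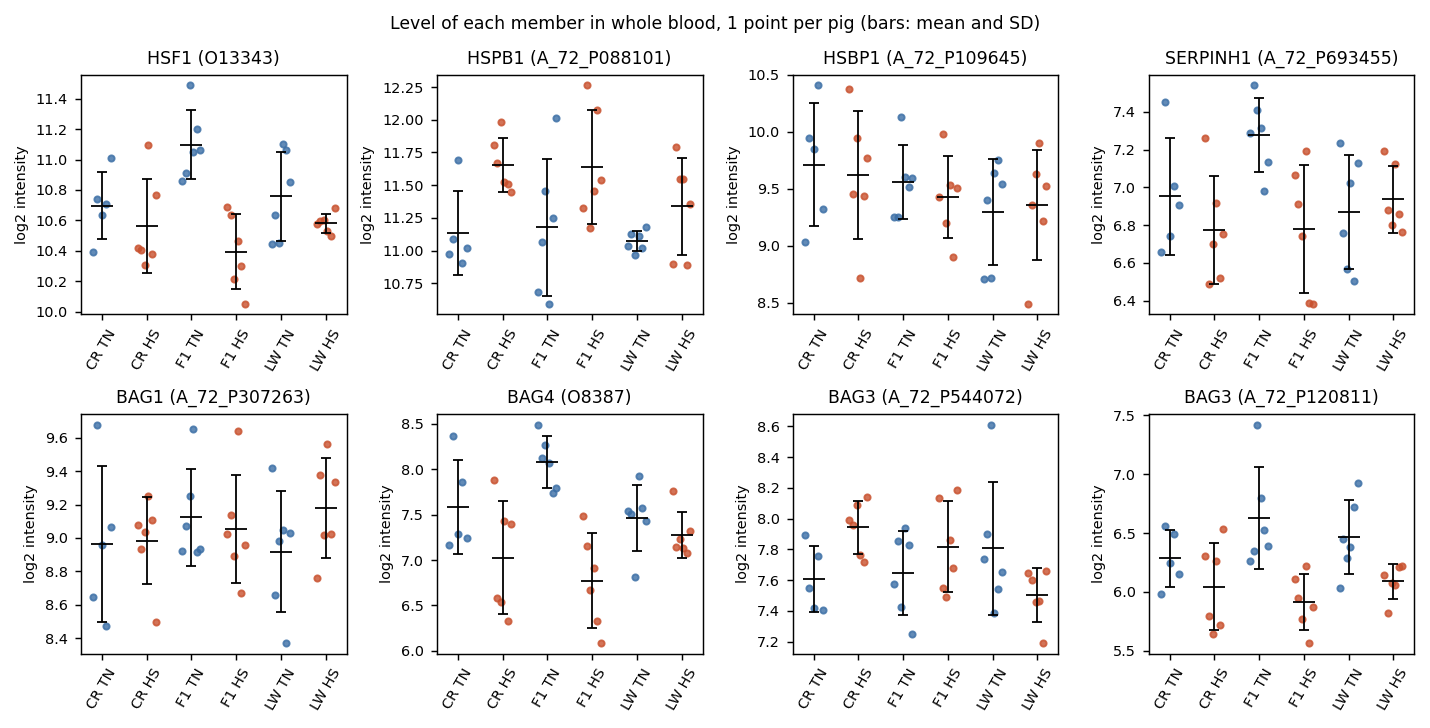
Log2 intensity of 8 probes in the 6 groups, with 1 point per pig, TN in blue and HS in red, and bars for the mean and SD. For HSF1, BAG4 and BAG3 A_72_P120811 the 6 F1 HS pigs lie below all 6 F1 TN pigs, while in every other panel and breed the HS and TN pigs overlap.

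HSF2 was at the limit of detection, and its probe was not in the authors' table. In values normalized here over all probes, it was well above background on 23 of 35 arrays. None of the 6 F1 TN arrays reached that level and all 6 F1 HS arrays did. It was reached on 3 of 5 CR TN, 4 of 6 CR HS, 4 of 6 LW TN and 6 of 6 LW HS arrays. The F1 HS pigs ran from 5.38 to 5.68 and the F1 TN pigs from 5.26 to 5.44. The measured means were 5.49 and 5.33, a ratio of 1.11-fold. The difference was 0.15 ± 0.07 in F1 pigs and did not pass (adjusted p = 0.084 in the limma fit of all probes). In the same fit it was 0.02 ± 0.07 in CR pigs (adjusted p = 0.99) and 0.07 ± 0.07 in LW pigs (adjusted p = 0.84). Over all breeds it was 0.08 ± 0.04 (adjusted p = 0.14). The F1 TN arrays also had the lowest mean signal of all groups, and the part of array signal in the detection counts was not tested.

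HSBP1, the negative regulator of HSF1 trimers, did not pass in any comparison. Its brightest probe, A_72_P109645, ran from 8.49 to 10.41 over the 35 arrays, and HS and TN pigs overlapped in every breed. The difference was -0.05 ± 0.15, with a 95% interval from -0.35 to 0.24 (adjusted p = 0.80, limma). The overlapping probe A_72_P077345 had a difference of -0.12 ± 0.14 (adjusted p = 0.51), and the deviations of the 2 probes from their group means correlated at r = 0.97 over the arrays. The remaining HSBP1 probe was well above background on 3 of 35 arrays only. Which strand it matches was not determined here, so its low signal says little about the gene.

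HSPB1 was the one gene of the set with an up-regulated probe. The 5 CR TN pigs had values of 10.90, 10.97, 11.02, 11.09 and 11.69 for the brighter probe A_72_P088101, and the CR HS pigs ran from 11.44 to 11.98 with a median of 11.60. All 6 CR HS pigs were above the CR TN mean, and 2 of them were above every CR TN pig. F1 TN pigs ran from 10.60 to 12.02 with a median of 11.16, and F1 HS pigs from 11.17 to 12.26 with a median of 11.50. LW TN pigs lay close together, from 10.97 to 11.18, and LW HS pigs ran from 10.89 to 11.79 with a median of 11.45. In LW pigs the HS values thus lay on both sides of the TN range, 4 above it and 2 below it.

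The difference of this HSPB1 probe was 0.41 ± 0.11 over all breeds (adjusted p = 0.0072, limma), and 15 of 18 HS pigs were above the TN mean of their breed. It was 0.52 ± 0.21 in CR pigs (adjusted p = 0.56), 0.46 ± 0.20 in F1 pigs (adjusted p = 0.064) and 0.26 ± 0.20 in LW pigs (adjusted p = 0.67). Without the F1 pigs the difference was 0.39 (adjusted p = 0.19), and with the erythroid list as a covariate it was 0.19 (adjusted p = 0.37). The second probe, A_72_P679687, did not pass, with a difference of 0.17 ± 0.09 (adjusted p = 0.15) and of 0.01 ± 0.16 in F1 pigs. The deviations of both probes from their group means correlated at r = 0.89 over the 35 arrays.

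SERPINH1, the collagen chaperone, was down-regulated in F1 pigs by its brighter probe A_72_P693455. F1 TN pigs ran from 6.98 to 7.54 and F1 HS pigs from 6.38 to 7.19, and 4 of the 6 F1 HS pigs were below every F1 TN pig. The difference was -0.50 ± 0.16 in F1 pigs (adjusted p = 0.014, limma). It was -0.18 ± 0.16 in CR pigs, 0.07 ± 0.16 in LW pigs and -0.20 ± 0.10 over all breeds (adjusted p = 0.10). With the erythroid list as a covariate it was -0.30 ± 0.18 in F1 pigs (adjusted p = 0.29) and -0.06 over all breeds (adjusted p = 0.83), and without F1 pigs -0.05 (adjusted p = 0.82). Leaving out the first CR HS pig gave -0.23 over all breeds with an adjusted p of 0.048, so that call depended on 1 pig. The other measured probe, O8960, was dim, with a mean of 5.95, and was well above background on 32 of 35 arrays. It gave -0.12 ± 0.20 over all breeds (adjusted p = 0.66) and -0.03 ± 0.35 in F1 pigs. The deviations of O8960 correlated with those of A_72_P693455 at r = 0.08. With the erythroid covariate O8960 turned to 0.32 over all breeds (adjusted p = 0.37). The remaining SERPINH1 probe was well above background on 1 of 35 arrays.

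BAG1 did not pass in any comparison. Its measured probe A_72_P307263 ran from 8.37 to 9.68 over the arrays, with the 6 group means between 8.92 and 9.18. The difference was 0.07 ± 0.11, with a 95% interval from -0.15 to 0.30 (adjusted p = 0.63, limma), and 11 of 18 HS pigs were above the TN mean of their breed. The second BAG1 probe was not well above background on any array. The strand it matches was not determined here, so its missing signal says little about the gene.

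BAG4 had the largest difference of the member probes over all breeds. F1 TN pigs ran from 7.73 to 8.49 with a median of 8.10, and F1 HS pigs from 6.09 to 7.48 with a median of 6.79, without overlap. The 5 CR TN pigs were at 7.17, 7.24, 7.29, 7.86 and 8.37, and CR HS pigs ran from 6.33 to 7.89 with a median of 6.99. In CR pigs 3 of 6 HS values were below every TN value. LW TN pigs ran from 6.81 to 7.93 and LW HS pigs from 7.08 to 7.76, so that the HS pigs lay wholly inside the TN range.

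The BAG4 difference was -0.69 ± 0.16 over all breeds (adjusted p = 0.0027, limma), with 16 of 18 HS pigs below the TN mean of their breed. By breed it was -1.31 ± 0.25 in F1 pigs (adjusted p = 0.00031), -0.56 ± 0.26 in CR pigs (adjusted p = 0.56) and -0.19 ± 0.25 in LW pigs (adjusted p = 0.81). With the erythroid list as a covariate it was -0.40 (adjusted p = 0.21), and without F1 pigs -0.36 (adjusted p = 0.29). The array also held 2 probes described as BAG4-like, which the files name by a predicted transcript and not as BAG4. Of these, A_72_P058246 was up-regulated, by 0.36 ± 0.09 over all breeds (adjusted p = 0.0031), with all 18 HS pigs above the TN mean of their breed. The other, A_72_P281424, had a difference of 0.03 ± 0.07 (adjusted p = 0.73). The BAG4 probe and 1 of the 2 BAG4-like probes thus moved in opposite directions. Only the first is named BAG4 in the array's annotation, and whether the BAG4-like probes measure the same gene was not settled by the files.

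The 6 BAG3 probes did not share 1 pattern. A_72_P120811 was down-regulated, with a difference of -0.45 ± 0.10 over all breeds (adjusted p = 0.0025, limma). The size varied with the processing. It was -0.82 (adjusted p = 0.0027) in processed signals scaled on the 75th percentile and -0.35 (adjusted p = 0.0024) after normexp background correction. The other 5 probes had differences between 0.00 and 0.12 and did not pass, with adjusted p from 0.32 to 0.98. For A_72_P120811, F1 TN pigs ran from 6.27 to 7.42 with a median of 6.46 and F1 HS pigs from 5.57 to 6.22 with a median of 5.91, without overlap. The 5 CR TN pigs were at 5.98, 6.15, 6.25, 6.49 and 6.56, and CR HS pigs ran from 5.64 to 6.54. LW TN pigs ran from 6.03 to 6.93 and LW HS pigs from 5.82 to 6.22, and all 6 LW HS pigs were below the LW TN mean. The difference was -0.71 ± 0.17 in F1 pigs (adjusted p = 0.0025), -0.24 ± 0.18 in CR pigs and -0.38 ± 0.17 in LW pigs. With the erythroid list as a covariate it was -0.53 ± 0.20 in F1 pigs (adjusted p = 0.094) and -0.32 over all breeds (adjusted p = 0.17), and without F1 pigs -0.31 (adjusted p = 0.22).

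The brightest BAG3 probe, A_72_P544072, had its highest mean in CR HS (7.94 ± 0.17) and its lowest in LW HS (7.50 ± 0.18), with the TN groups between. Its difference was 0.34 ± 0.17 in CR pigs, 0.17 ± 0.16 in F1 pigs and -0.30 ± 0.16 in LW pigs. The overlapping probe O2952 gave 0.42 ± 0.16, 0.24 ± 0.15 and -0.29 ± 0.15 in the same order, and A_72_P335878, which shares no more than 8 bases with it, gave 0.25 ± 0.15, 0.18 ± 0.14 and -0.39 ± 0.14. None of these passed after adjustment. The interaction of breed and climate had unadjusted p of 0.022, 0.0061 and 0.0049 for the 3 probes and adjusted p of 0.28 for each (limma). The deviations of these 3 probes correlated at r from 0.80 to 0.91 with each other, and those of A_72_P120811 at r between -0.06 and 0.12 with all other BAG3 probes. The probes A_72_P577688 and A_72_P490512, which were dim with means of 5.86 and 5.71, correlated with this trio at r from 0.24 to 0.60.

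**Figure D2:**
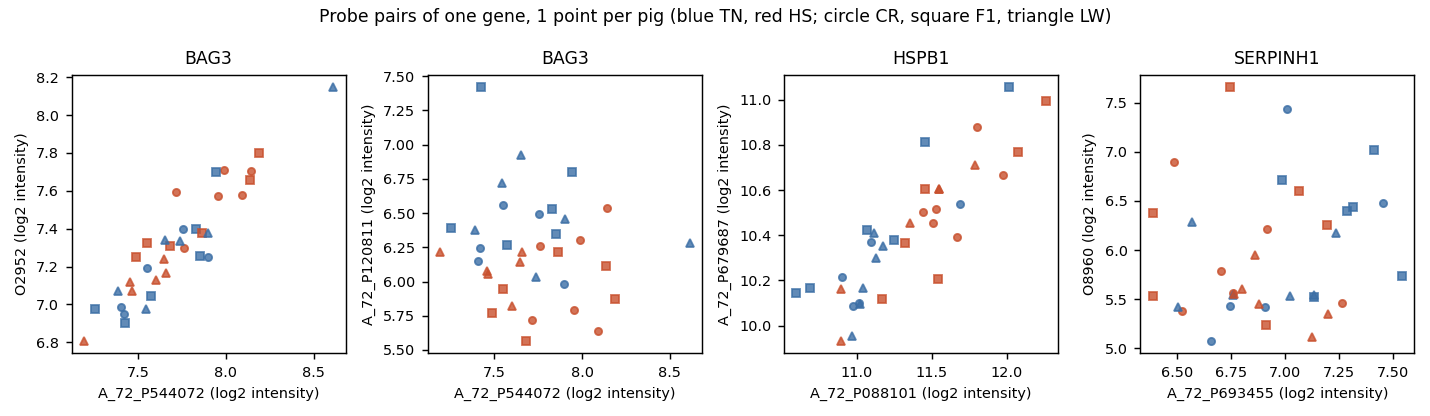
Log2 intensities of 2 probes of the same gene plotted against each other, with 1 point per pig (TN blue, HS red; circles CR, squares F1, triangles LW). The overlapping BAG3 pair and the HSPB1 pair rise together, whereas BAG3 A_72_P120811 and the SERPINH1 pair show little common order.

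By breed, the calls fell in F1 pigs. In F1 pigs 4 of the 13 member probes were down-regulated and none was up-regulated: HSF1, BAG4, BAG3 A_72_P120811 and SERPINH1 A_72_P693455. Over all probes 38.7% passed in F1 pigs, 20.8% higher and 17.9% lower in HS. The median difference over all probes was 0.13 in F1 pigs, against 0.03 in CR and 0.01 in LW pigs. That of the 13 member probes was -0.07 in F1 pigs. With the erythroid list as a covariate 2 member probes passed in F1 pigs, beside 5.89% of all probes. These were HSF1, at -0.65 ± 0.17 (adjusted p = 0.029), and BAG4, at -0.94 ± 0.27 (adjusted p = 0.037). No member probe passed in either parent breed, CR or LW (limma), nor did any other probe (0% in both). With array weights no member probe passed in LW pigs either, while 2.84% of all probes did. At an unadjusted p under 0.05 there were 3 member probes in CR pigs, beside 8.87% of all probes, and 2 in LW pigs, beside 8.71%. The interaction of breed and climate called no member probe and 0% of all probes in limma. At an unadjusted p under 0.05 it had 5 member probes, beside 14.9% of all probes, and the smallest adjusted p was 0.28, so the response in F1 pigs was not shown to differ from that in the other breeds.

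**Figure D3:**
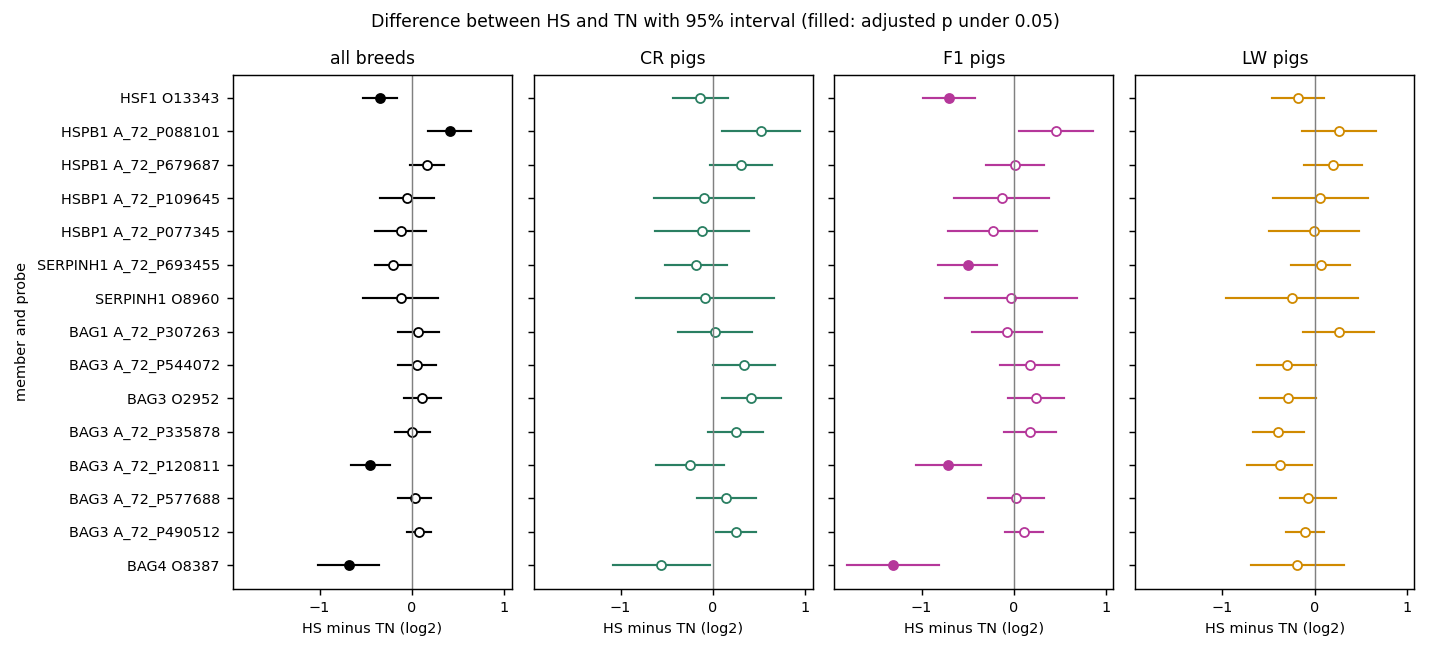
HS minus TN on the log2 scale with its 95% interval for 15 probes, over all breeds and within CR, F1 and LW pigs; filled points have an adjusted p under 0.05 in limma. Filled points below 0 are seen for HSF1, BAG4 and BAG3 A_72_P120811, and in F1 pigs also for SERPINH1 A_72_P693455, and the single filled point above 0 is the brighter HSPB1 probe over all breeds.

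Breeds did not differ detectably in these genes. No member probe passed in CR minus LW, F1 minus CR or F1 minus LW (limma), where 1.08%, 0.184% and 0.0256% of all probes did. At an unadjusted p under 0.05 there were 10.11%, 4.95% and 4.48% of all probes in the same order. Of the 13 member probes in the authors' table there was 1 over the 3 comparisons, SERPINH1 O8960. Its difference between F1 and LW pigs was 0.66 ± 0.24 (adjusted p = 0.82). HSF2, near background and outside that table, had a CR minus LW difference of -0.15 ± 0.05. Its unadjusted p was 0.0033 and its adjusted p 0.20 in the limma fit of all probes. HSBP1 had a CR minus LW difference of 0.34 ± 0.18 (adjusted p = 0.56).

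The order of the 6 group means was read from the brightest probe of each of 7 genes, HSPB1 included. HSF1 was highest in F1 TN (11.10 ± 0.23), followed by LW TN, CR TN, LW HS, CR HS and F1 HS (10.39 ± 0.25), so that all TN groups stood above all HS groups. BAG4 also had the 3 TN groups first, from F1 TN (8.08 ± 0.29) down to F1 HS (6.77 ± 0.52). HSPB1 had the 3 HS groups first, from CR HS (11.66 ± 0.20) down to LW TN (11.07 ± 0.08). SERPINH1 was highest in F1 TN and lowest in CR HS, BAG1 highest in LW HS and lowest in LW TN, and HSBP1 highest in CR TN and lowest in LW TN. Neighbours in these orders did not differ beyond their spread in a two-sided exact permutation test. The order was set on the same values, so neighbours are the closest means, and the test says nothing on groups further apart. The smallest p over the 35 neighbouring pairs was 0.054, for HSF1 between F1 TN and LW TN, and every adjusted p was 0.97.

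Slides were examined as a batch, since each of the 5 slides was scanned at its own time and 4 of them held arrays of all 6 groups. On the remaining slide the HS arrays were CR and F1 and the TN arrays LW, so climate and breed cannot be told apart there and it was left out. The plain HS mean minus TN mean within a slide, without adjustment for breed, was below 0 on all 4 slides for HSF1 (from -0.48 to -0.03), for BAG4 (from -0.84 to -0.32) and for BAG3 A_72_P120811 (from -0.72 to -0.08). It was above 0 on all 4 slides for HSPB1 A_72_P088101, from 0.25 to 0.62. Within F1 pigs, the 4 slides that held both climates gave differences from -1.45 to -1.17 for BAG4 and from -0.83 to -0.20 for HSF1. For HSBP1, BAG1 and the brightest BAG3 probe the sign varied between slides.

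**Figure D4:**
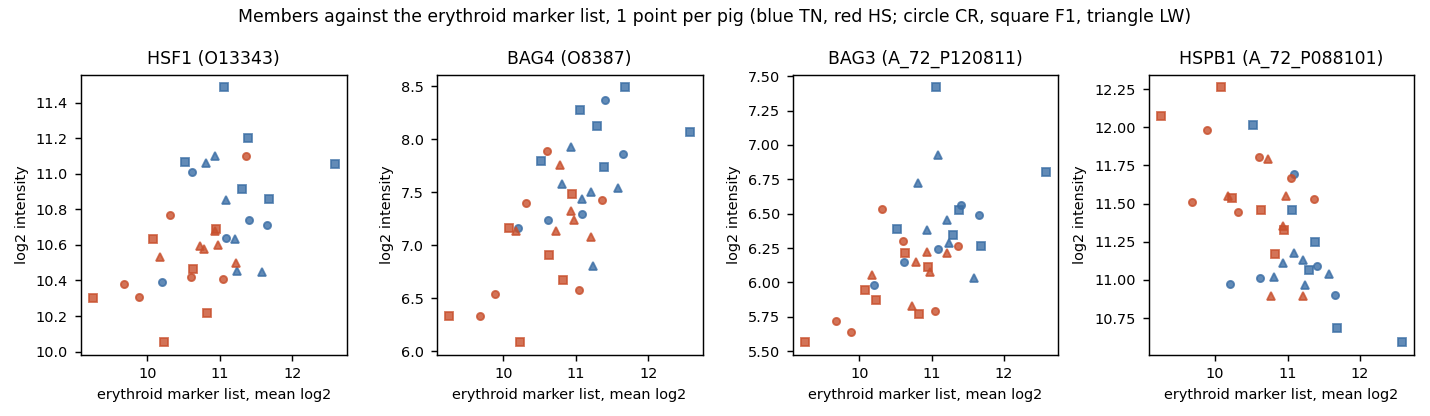
Log2 intensity of HSF1, BAG4, BAG3 A_72_P120811 and HSPB1 A_72_P088101 against the mean log2 level of the erythroid marker list, with 1 point per pig (TN blue, HS red; circles CR, squares F1, triangles LW). HS pigs lie mostly at the lower end of the erythroid list, where BAG4 is low and HSPB1 high; the part of red cells in the differences was not tested.

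Other genes of the pathway were taken from 7 lists of companions, each gene by its brightest probe. Of 85 distinct genes 58 were measured, of which 11 were up-regulated, 8 were down-regulated and 39 did not pass, which is 32.8%. Among all 8601 genes with a known symbol, 1955 were up-regulated and 1449 down-regulated, or 39.6%. The median difference was 0.07 over the companion genes and 0.06 over all such genes. Without the F1 pigs none of the 58 passed.

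Among regulators of HSF1, 4 of 11 measured genes were up-regulated and none was down-regulated. That is 36.4%, beside 39.6% of all genes with a known symbol. DAXX, a nuclear protein that helps to activate HSF1 trimers, rose by 0.42 ± 0.11 (adjusted p = 0.0058, limma). The acetyltransferase EP300 rose by 0.31 ± 0.11, the ATPase VCP by 0.29 ± 0.07 and the scaffold protein SYMPK by 0.28 ± 0.08. The only other member of the heat shock factor list measured here was the HSF2-binding protein HSF2BP, with a difference of 0.11 ± 0.06 (adjusted p = 0.11).

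Of 14 measured textbook targets of HSF1, 1 was up-regulated and 2 were down-regulated. That is 21.4%, beside 39.6% of all genes with a known symbol. The listed targets HSPA1A, HSPA1B, HSPA4, HSPA4L, DNAJA1 and STIP1 had no measured probe under these names, so this part of the list was not seen. The chaperone HSP90AA1 rose by 0.38 ± 0.10 (adjusted p = 0.0070, limma), and the polyubiquitin gene UBB was lower, with a difference of -0.19 ± 0.06 (adjusted p = 0.020). CRYAB, a small heat shock protein, was lower by the largest amount, with a difference of -0.91 ± 0.19 (adjusted p = 0.0016). CRYAB was the only one of the 9 other small heat shock proteins with a measured probe, so the family beyond HSPB1 rests on this gene. CRYAB is also abundant in muscle, and in a skeletal muscle marker list 3 of 7 measured genes fell, CKM (-0.83), DES (-0.53) and MYH2 (-0.23), and 1 rose, ACTA1 (0.34). The mean of that list ran from 8.33 to 8.57 in F1 TN and from 7.69 to 8.24 in F1 HS, and from 7.76 to 8.59 in the other groups. Its part in the CRYAB difference was not tested.

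In the kinase pathway that phosphorylates HSPB1, 1 of 6 measured genes rose and 2 fell, which is 50%, beside 39.6% of all genes with a known symbol. MAPKAPK2, the kinase that phosphorylates HSPB1, had a difference of -0.68 ± 0.16 (adjusted p = 0.0028, limma) and its relative MAPKAPK3 one of 0.33 ± 0.07 (adjusted p = 0.0019). The upstream kinase MAP2K3 had a difference of -0.15 ± 0.06 (adjusted p = 0.035). Beside the same 39.6%, only 18.2% of the partners of BAG proteins passed: of 11 measured, 2 rose and none fell. These were the ubiquitin ligase STUB1, which works with BAG proteins on HSP70 clients, with 0.32 ± 0.08 (adjusted p = 0.0027), and the HSP70 nucleotide exchange factor HSPBP1, with 0.30 ± 0.07 (adjusted p = 0.0028).

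Collagens and the enzymes that modify them were listed beside SERPINH1. Of 16 measured genes 3 were up-regulated and 4 were down-regulated, which is 43.8%, beside 39.6% of all genes with a known symbol. COL3A1, a fibrillar collagen, had a difference of -0.88 ± 0.18 (adjusted p = 0.0016, limma). PLOD2 (-0.59 ± 0.16), P4HA1 (-0.55 ± 0.11) and PLOD1 (-0.51 ± 0.13), which hydroxylate procollagen, were also lower. The 3 that rose, named after their values were seen, were P4HB (0.26 ± 0.09), CRTAP (0.30 ± 0.09) and PPIB (0.30 ± 0.09), which act on procollagen in the endoplasmic reticulum. In a marker list for connective tissue 8 of 9 genes were measured, and COL3A1, DCN and PDGFRB fell and none rose. The mean of that list ran from 7.20 to 7.61 in F1 TN and from 6.71 to 7.46 in F1 HS.

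**Figure D5:**
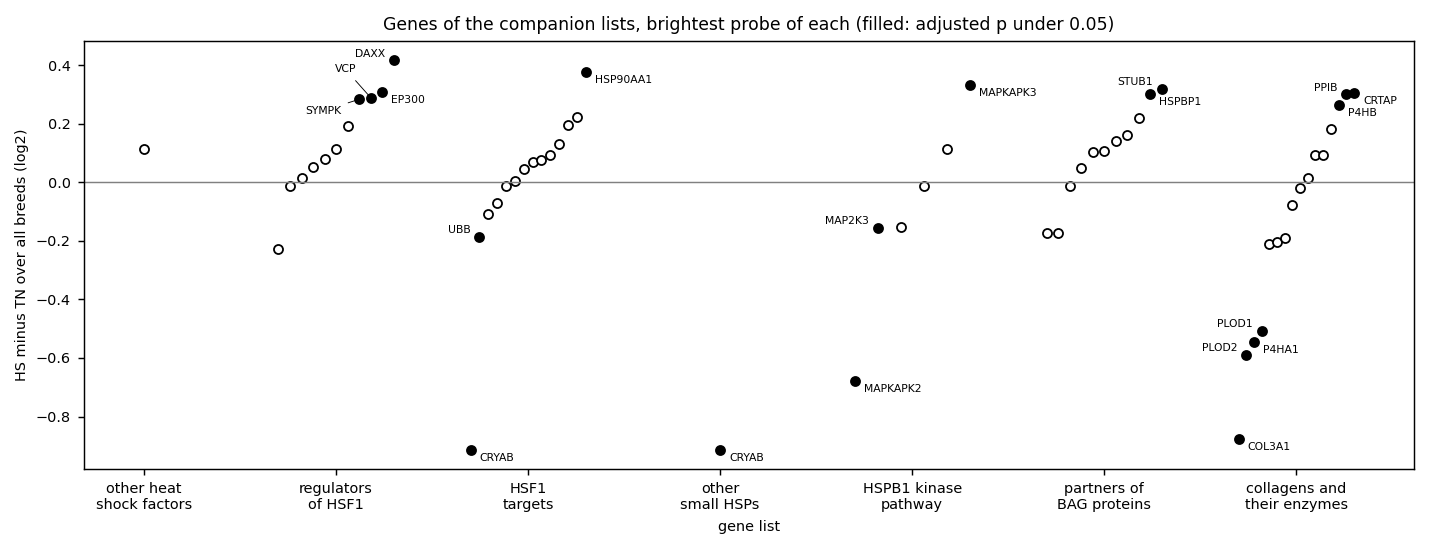
HS minus TN over all breeds on the log2 scale for the measured genes of the 7 companion lists, 1 point per gene in a list; filled points have an adjusted p under 0.05 in limma and carry the gene name. CRYAB (-0.91), COL3A1 (-0.88) and MAPKAPK2 (-0.68) lie lowest, and DAXX (0.42) and HSP90AA1 (0.38) highest.

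The genes whose deviations from the group means were most like those of a member over the 35 arrays are given as a description among 8600 genes, with no test, since the arrays share scanner signal and cell mixture. For HSF1 these were COPS6 (Pearson's r = 0.89) and MLLT6 (r = 0.85), for BAG4 CLDN9 and IFT52 (r = 0.97 for both) and for SERPINH1 NLRC3 and LIN52 (r = 0.94 for both). For HSPB1 they were GRAP2 (r = 0.79) and EGFL8 (r = 0.76), and for HSBP1 TSTD2 (r = 0.85) and C2ORF88 (r = 0.82).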

How the data were processed

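Messenger RNA of pig whole blood was measured on 35 Agilent one-colour arrays. The authors deposited a table of log2 values of the expressed probes, obtained from median spot intensity after quantile normalization, and scanner files with the intensity of each spot from Feature Extraction 10.10.1.1. Groups were taken from the sample labels. Member probes were matched by gene name, and tests used the deposited log2 values with limma 3.58.1 in R 4.3.3, in a model of breed and climate, or of the 6 group means for effects within breeds and their interaction. The random effects of the study's own model (pen, slaughter day, parents) are not in the labels and were not fitted. Neighbouring groups were compared by exact permutation in SciPy 1.17.1.

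Raw median intensity was also normalized here (quantile, no background correction); over the authors' probes it correlated with their values at r = 0.99997, and it gave the values of the probes outside their table. Spots marked non-uniform or population outliers (217) were set to missing. The other flags deposited with the scanner files, such as well above background, counted detected arrays. The number of arrays, 5 or 6 per group, limits the precision. P-values measure the spread between pigs taken as independent, although the pigs came in blocks of littermates and shared pens. The study's own model, with pen, slaughter day and parents, called far fewer probes in blood than the 34.8% called here over all breeds. The part of these terms in the calls was not tested. The fit was tested on simulated data.

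The members and gene lists were chosen with earlier results of these data known. Every member probe was accounted for. A gene is described by its brightest probe (highest mean over the 35 arrays), and other probes where their sign or call differed. From each companion list up to 4 genes with the largest difference among those past the threshold were named, and for each member detected on all 35 arrays the 2 genes most like it, which for BAG1 and BAG3 are not reported here. Alternatives changed the values, background correction, scaling, filters, slide terms, array weights, an erythroid covariate, the F1 pigs and each array in turn.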

Additional observations from a re-analysis of the deposited data

Results flagged for a closer look

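Of 90 groups of 5 or 6 pigs examined over 15 probes, 4 held a pig set apart from the others by Dixon's test at its 95% critical value, where chance alone gives about 1 in 20 groups. For HSPB1 A_72_P088101, CR TN replicate 3 was at 11.69, and the next pig was at 11.09. For BAG4 O8387, LW HS replicate 1 was at 7.76 and the next at 7.33. For BAG3 O2952, CR HS replicate 4 was at 7.30, below the next pig at 7.57, and LW TN replicate 3 was at 8.15, above the next at 7.38.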

How the results depend on the processing

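Over all breeds 3 of the 13 member probes passed, and with each array left out in turn the count was 3 to 4. It was 0 with the erythroid list as a covariate and 0 without F1 pigs. In F1 pigs the count was 4, 4 to 4 with 1 array left out, and 2 with the erythroid covariate. In CR pigs, in LW pigs, in the interaction and between breeds it was 0 under every alternative run, and 0 to 0 with 1 array left out. The companion genes past the threshold were 19, 18 to 23 with 1 array left out, and 0 with either the erythroid covariate or no F1 pigs. HSF1, BAG4, HSPB1 A_72_P088101 and BAG4-like A_72_P058246 kept their direction under all alternatives run and lost the threshold under these 2 only. The values stand above except for BAG4-like, at 0.17 (adjusted p = 0.27, limma) and 0.31 (adjusted p = 0.19). The HSBP1 difference ran from -0.10 to 0.00081 with 1 array left out and changed sign without CR HS replicate 4. With 1 array left out the SERPINH1 difference ran from -0.24 to -0.17, and passed only without CR HS replicate 1. Other backgrounds, scalings, filters, slide terms and array weights changed none of the member counts, though array weights raised the share of all probes called in CR minus LW from 1.08% to 3.9%. The median of all probes was 0.06 in the fit used and 0.08 after scaling on the 75th percentile. No paired analysis was possible because the labels do not give the litter. They carry no replicate numbers either, and those used here only follow the order of the samples. The cause of the changes was not tested. Members near background, such as HSF2, have only limited signal to show a difference.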
